A study of Homo sapiens with 8 samples.

Results

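The genes described here encode proteins of the mitochondrial ribosome. They were taken by symbol: every gene whose only symbol on a probe set was MRPL or MRPS, a number and at most one letter. This gave 74 of the 20307 genes measured, each represented by its brightest probe set, judged by the mean of the 8 arrays regardless of group. RNA came from CEM, an established human line of T-cell acute lymphoblastic leukaemia. The 4 control cultures had been given a scrambled shRNA and the 4 knockdown cultures an shRNA against ZMIZ1, a PIAS-like transcriptional coactivator. No second shRNA against ZMIZ1, no rescue and no untransfected culture is named, so off-target effects of this shRNA and lowered ZMIZ1 cannot be told apart. All cultures come from 1 cell line and were measured in bulk, where fewer cells of a type and less RNA per cell cannot be told apart. The comparison asks how the transcripts of these genes differ between knockdown and control cultures.

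Mitochondria keep a small genome of their own, and the few proteins it encodes are core subunits of the respiratory chain and of ATP synthase. The mitochondrial ribosome makes them. Its ribosomal RNAs come from mitochondrial DNA, whereas all of its proteins are encoded in the nucleus, made in the cytosol and imported. Part of these proteins descend from the bacterial ribosome, and others were added during the evolution of mitochondria. The large subunit (MRPL genes) joins amino acids and the small subunit (MRPS genes) reads the messenger RNA. The symbols are not a perfect guide: MRPS30 and MRPS18A are now placed in the large subunit. MRPS36 is now regarded as a component of the oxoglutarate dehydrogenase complex and not of the ribosome, so the subunit counts below leave it out.

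ZMIZ1, the target, did not overlap between the groups. Its log2 values were 11.07, 11.18, 11.19 and 11.20 in the controls and 9.76, 9.95, 10.01 and 10.07 in the knockdown arrays, a fall of 1.21 (SE 0.08; limma adjusted p = 6.58e-05). Of 10 T-lineage markers, CD3D was the brightest at 13.41 ± 0.06 in controls (SD, n = 4), PTPRC and LCK stood at 11.34 and 10.63, and CD2 (4.02) and CD5 (5.70) were dim. CD3E rose by 1.06 ± 0.12 (adjusted p = 0.000586) and CD1A fell by 0.93 (SE 0.08; adjusted p = 0.0002), both larger in size than any mitoribosomal difference, and the other 8 T-lineage markers did not pass. The 12 markers of other cell types had a mean log2 value between 5.53 and 5.65 in the control arrays and between 5.55 and 5.60 in the knockdown arrays. EPCAM (8.42), COL1A1 (7.63) and CD79A (7.28) were the brightest of these in controls, HBB rose by 0.44 and KRT8 fell by 0.22. The mean signal of the 3 probe sets for 18S ribosomal RNA, which is not polyadenylated, separated the groups. It was 13.37, 13.24, 13.06 and 12.70 in the controls and 12.12, 11.67, 9.85 and 10.21 in the knockdown arrays (two-sided exact permutation p = 0.0286, the smallest that 70 assignments of arrays allow). The groups therefore differ in this signal as they do in ZMIZ1.

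All 74 mitoribosomal genes were clearly expressed. Their mean log2 values over the 8 arrays ran from 8.68 to 13.09 with a median of 11.16, against a median of 6.44 for all genes. Differences below are knockdown minus control in log2 units, "rose" and "fell" mark genes with a limma adjusted p under 0.05 over all 20307 genes, and errors of differences are standard errors. With knockdown, 20 of the genes rose and 6 fell (35.1%), against 20.0% of all genes called, and 48 did not pass. The rises made up 27.0% of the members against 13.5% of all genes, and the falls 8.11% against 6.50%. Bright genes were called more often as a whole: of the 5899 genes within the members' range of mean values, 31.2% were called, 20.8% as rises and 10.4% as falls. The median level of these 5899 genes was 10.15, lower than the members' 11.16, so they match the members in range only. The share of members called was close to the share in this range, with more of it on the side of rises.

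In size the differences were small. The median difference was 0.19 over the 74 genes, 0.03 over all genes and 0.06 over the genes in the members' range. Of the members, 59 were higher and 15 lower in knockdown arrays. Among the 26 that changed, the median size was 0.36, or 1.28-fold, and 1 member, MRPL54, reached 1.5-fold. The control and knockdown arrays did not overlap in 33 members (44.6%), 27 of them above and 6 below the controls. The groups did not overlap in 25.1% of all genes and 39.1% of those in the members' range.

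**Figure D1:**
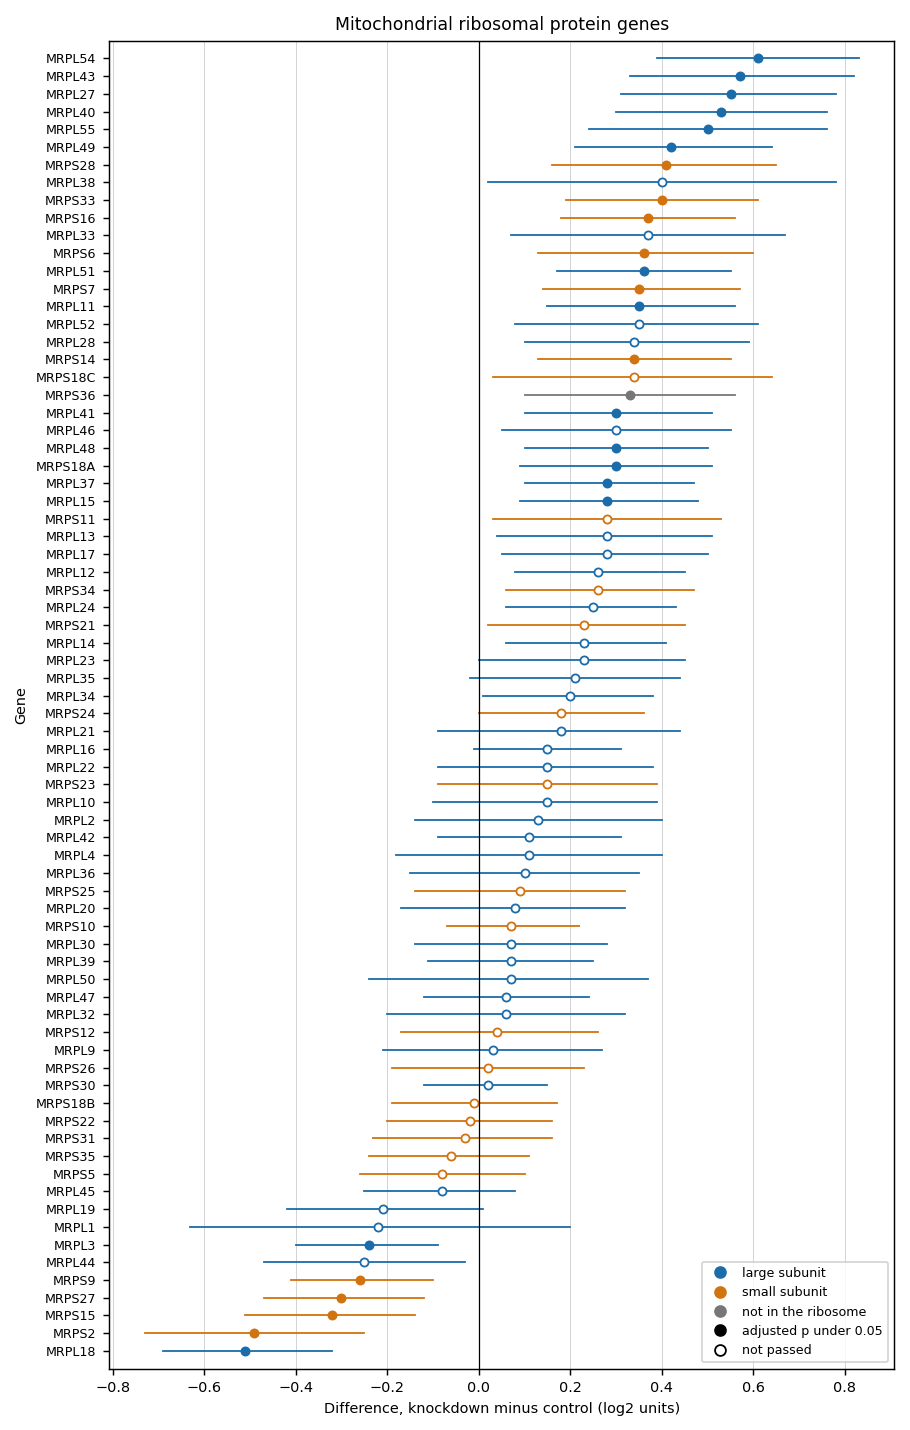
Difference between knockdown and control arrays (x axis, log2 units) for each of the 74 genes (y axis), ordered by size; bars are 95% confidence intervals and filled points passed an adjusted p of 0.05. Most points lie to the right of 0, from MRPL54 at 0.61 down to MRPL18 at -0.51.

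The largest rise and the largest fall were both in the large subunit. They are shown here with their promoter windows, from 250 bases before to 50 bases after the transcription start in RefSeq (GRCh38.p14), because they mark the ends of the range; MRPL27, another of the largest rises, is shown because its window holds the letters CCGGAAGT, a core recognised by ETS factors, at 2 positions, printed in capitals.
MRPL54, chr19:3762432-3762731, plus strand: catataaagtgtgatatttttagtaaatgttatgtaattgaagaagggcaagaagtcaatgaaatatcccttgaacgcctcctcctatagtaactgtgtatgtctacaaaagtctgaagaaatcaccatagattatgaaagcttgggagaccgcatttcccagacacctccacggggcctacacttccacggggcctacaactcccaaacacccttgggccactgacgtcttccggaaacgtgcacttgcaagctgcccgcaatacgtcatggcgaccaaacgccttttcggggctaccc
MRPL27, chr17:50373135-50373434, minus strand: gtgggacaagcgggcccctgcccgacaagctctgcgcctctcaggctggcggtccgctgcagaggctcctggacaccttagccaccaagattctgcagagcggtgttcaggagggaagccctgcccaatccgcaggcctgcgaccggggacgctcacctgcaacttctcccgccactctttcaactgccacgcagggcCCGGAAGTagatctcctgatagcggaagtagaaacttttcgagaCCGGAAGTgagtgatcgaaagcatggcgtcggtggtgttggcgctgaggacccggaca
MRPL18, chr6:159789562-159789861, plus strand: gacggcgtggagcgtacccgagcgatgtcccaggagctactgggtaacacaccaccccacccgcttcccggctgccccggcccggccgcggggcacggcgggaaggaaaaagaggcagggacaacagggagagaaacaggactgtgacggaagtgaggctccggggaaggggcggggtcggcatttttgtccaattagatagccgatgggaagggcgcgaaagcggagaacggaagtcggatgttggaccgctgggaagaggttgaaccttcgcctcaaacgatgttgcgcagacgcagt

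MRPL54, on chromosome 19, encodes a mitochondria-specific protein of the large subunit. Its log2 values were 10.82, 10.80, 10.74 and 10.45 in the controls and 11.23, 11.22, 11.47 and 11.33 in the knockdown arrays. Every knockdown array lay above every control array, and control 4 was the lowest of all. The rise was 0.61 ± 0.10 (1.53-fold; adjusted p = 0.00254).

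MRPL43, another mitochondria-specific protein of the large subunit, read 9.89, 9.99, 9.91 and 9.57 in the controls and 10.27, 10.35, 10.64 and 10.39 in the knockdown arrays. The groups were again apart, with a rise of 0.57 ± 0.11 (1.49-fold; adjusted p = 0.0056). MRPL43 also had a second probe set that rose, by 0.32 ± 0.08 (adjusted p = 0.0296 over all probe sets). MRPL27, the homologue of bacterial L27, which reaches toward the peptidyl transferase centre, had control values of 11.09, 11.21, 11.09 and 10.82 and knockdown values of 11.49, 11.46, 11.79 and 11.65. No knockdown value came down to the controls, and the rise was 0.55 ± 0.10 (1.46-fold; adjusted p = 0.00531).

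MRPL40 and MRPL55 belong to the central protuberance, the top of the large subunit that faces the small one. MRPL40 gave 10.78, 10.77, 10.63 and 10.41 in controls and 11.06, 11.07, 11.34 and 11.26 in knockdown arrays, a rise of 0.53 ± 0.10 (adjusted p = 0.00576). For MRPL55, the counterpart of bacterial L31, the controls lay at 9.53, 9.65, 9.41 and 9.11 and the knockdown arrays at 9.83, 9.85, 10.10 and 9.92, a rise of 0.50 ± 0.12 (adjusted p = 0.0138). In both genes the groups did not overlap, and control 4 was the lowest array. Another central protuberance gene, MRPL48, rose by 0.30 ± 0.09 (adjusted p = 0.0418).

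The next large-subunit rises were MRPL49 and MRPL51, both mitochondria-specific. MRPL49 held the controls close together at 10.40, 10.46, 10.39 and 10.30, and its knockdown values were 10.66, 10.64, 11.04 and 10.91. Knockdown arrays 3 and 4 stood above 1 and 2, and the rise was 0.42 ± 0.10 (adjusted p = 0.0128). MRPL51, among the brightest members, read 12.61, 12.61, 12.57 and 12.35 in controls and 12.81, 12.83, 12.99 and 12.95 in knockdown arrays, a rise of 0.36 ± 0.08 (adjusted p = 0.0134). A probe set that carries the symbols of both MRPL51 and SPTLC1, and was therefore not used for a member, rose by 0.52.

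Among small-subunit genes, MRPS28, MRPS33, MRPS16, MRPS6 and MRPS7 had the largest rises. MRPS28 encodes the protein now assigned to the place of bacterial S1. Its values were 10.89, 10.95, 10.80 and 10.58 in controls and 11.05, 11.08, 11.45 and 11.27 in knockdown arrays, a rise of 0.41 ± 0.11 (adjusted p = 0.027). The groups were apart by a narrow margin, with knockdown arrays 1 and 2 just above the controls.

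MRPS33, a mitochondria-specific protein of the head of the small subunit, read 11.43, 11.47, 11.32 and 11.18 in controls and 11.61, 11.65, 11.90 and 11.83 in knockdown arrays (rise 0.40 ± 0.09; adjusted p = 0.0144). MRPS16, whose bacterial counterpart is an early-assembling protein, read 11.49, 11.63, 11.50 and 11.46 against 11.79, 11.79, 12.09 and 11.89 (rise 0.37 ± 0.09; adjusted p = 0.0133). Both genes separated the groups in full, but a second MRPS16 probe set with a mean of 10.22 differed by 0.05 ± 0.08 (adjusted p = 0.766 over all probe sets). The call of MRPS16 therefore rests on its _s_at probe set, without which the gene differed by 0.05 (adjusted p = 0.759). MRPS6, of the platform, gave 10.75, 10.73, 10.59 and 10.33 in controls and 10.85, 10.88, 11.08 and 11.04 in knockdown arrays (rise 0.36 ± 0.10; adjusted p = 0.0334). MRPS7, of the head, gave 11.24, 11.19, 10.99 and 10.86 against 11.33, 11.35, 11.54 and 11.48 (rise 0.35 ± 0.10; adjusted p = 0.0295). In these last genes the controls spread over a wider range than the gap between the groups.

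Of the 6 falls, MRPL18 was the largest. MRPL18 is the counterpart of bacterial L18, which binds 5S ribosomal RNA in the central protuberance, where the mammalian mitochondrial ribosome holds a transfer RNA. Its log2 values were 12.03, 12.01, 11.96 and 11.76 in controls and 11.38, 11.34, 11.55 and 11.45 in knockdown arrays. All knockdown arrays lay below all controls, at 70.3% of the control level, a fall of 0.51 on the log2 scale (SE 0.08; adjusted p = 0.00278). Within the central protuberance, MRPL18 therefore moved against MRPL40, MRPL55 and MRPL48.

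The other falls were led by the small subunit. MRPS2, one of the dimmest members, read 9.71, 9.65, 9.43 and 9.35 in controls and 8.90, 8.92, 9.15 and 9.21 in knockdown arrays, a difference of -0.49 ± 0.11 (adjusted p = 0.0101). MRPS15 read 12.62, 12.71, 12.57 and 12.43 against 12.23, 12.14, 12.35 and 12.30, a difference of -0.32 ± 0.08 (adjusted p = 0.0211). Neither gene overlapped between the groups. MRPS27, a mitochondria-specific protein with pentatricopeptide repeats, read 11.09, 10.86, 11.12 and 11.13 in controls and 10.71, 10.79, 10.72 and 10.79 in knockdown arrays, and fell by 0.30 (SE 0.08; adjusted p = 0.0248). Control 2 stood apart from the other controls in this gene and lay nearest to the knockdown arrays. MRPS9, of the head, read 11.02, 10.99, 10.99 and 10.87 against 10.68, 10.64, 10.78 and 10.74 (difference -0.26 ± 0.07; adjusted p = 0.0265). MRPL3, a protein near the peptidyl transferase centre and the brightest of the 74 genes, read 13.31, 13.17, 13.22 and 13.16 against 13.01, 13.02, 12.92 and 12.93 (difference -0.24 ± 0.07; adjusted p = 0.0311). It was the only large-subunit gene besides MRPL18 that fell.

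**Figure D2:**
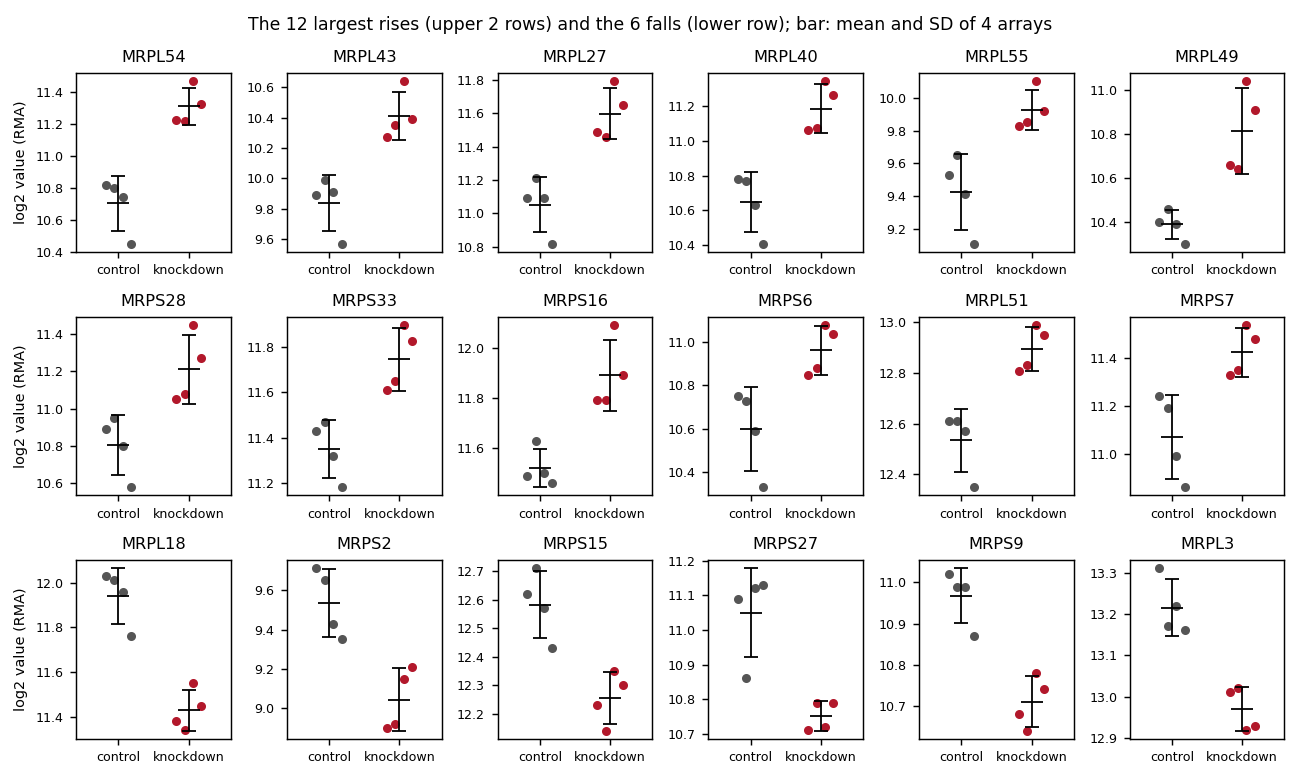
Log2 values of each array (y axis) in the control and knockdown groups (x axis) for the 12 largest rises (upper panels, MRPL54 to MRPS7) and the 6 falls (lowest panels, MRPL18 to MRPL3), with the mean and SD of 4 arrays; each panel has its own range. In none of the 18 panels do the groups overlap, and control 4 is the lowest control in most panels.

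Calls near the threshold moved when single arrays were left out. Of the 26 calls, 11 were kept in all 8 fits that each left out 1 array: the rises of MRPL54, MRPL43, MRPL27, MRPL40, MRPL55, MRPL49, MRPS33, MRPS16 and MRPL51 and the falls of MRPL18 and MRPS2. MRPS28, MRPS6 and MRPS7 lost their calls without control 3, control 4, knockdown 3 or knockdown 4 in turn, with highest adjusted p values of 0.0748, 0.0928 and 0.0874. MRPS15 lost its call without control 2, control 3 or knockdown 2 (highest adjusted p = 0.0577). MRPS27 kept its call only without control 2 or knockdown 2, MRPS9 only without control 4 or knockdown 3, and MRPL3 only without control 4, knockdown 1 or knockdown 2, with highest adjusted p values of 0.0767, 0.0734 and 0.0858. All 26 members kept their sign in each of these fits. Without probe sets ending in _s_at or _x_at, the named members MRPS16, MRPS15 (-0.08, on a probe set with a mean of 4.92; adjusted p = 0.726) and MRPL43 (0.39; adjusted p = 0.0847) lost their calls. MRPL27, MRPL55, MRPL51, MRPS28 and MRPS33 have only such probe sets, so their calls could not be checked there. The same holds for MRPL11, MRPL41 and MRPS36. In that fit 13 of the 26 calls were kept and 18 of the 26 members kept their sign, where members without a measured probe set count as not kept. With all probe sets averaged, MRPS15 (-0.22; adjusted p = 0.249) did not pass, and the rises of MRPL55 and MRPS16 came to 0.30 and 0.21.

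By subunit, 13 of 48 large-subunit genes rose (27.1%) and 2 fell (4.17%), with a median difference of 0.22. In the small subunit 6 of 25 rose (24.0%) and 4 fell (16.0%), with a median of 0.09. These shares stand against 13.5% and 6.50% of all genes and 20.8% and 10.4% of those in the members' range. Among the 18 large-subunit proteins classed as mitochondria-specific, 9 rose and 0 fell (13 had an unadjusted p under 0.05), with a median of 0.30. Of the 30 classed as bacterial in origin, 4 rose and 2 fell, with a median of 0.16. The small subunit had 5 rises and 3 falls among 15 genes classed as bacterial in origin. It had 1 rise (MRPS33) and 1 fall (MRPS27) among 10 classed as mitochondria-specific. Beside the counts for these classes of origin, 20.0% of all genes and 31.2% of those in the members' range were called. The difference between subunits or between origins was not tested, since the classes were set with the values known.

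By position in the ribosome, the central protuberance had 3 rises and 1 fall among 6 genes. The head of the small subunit had 3 rises (MRPS33, MRPS7 and MRPS14) and 1 fall (MRPS9) among 8. Beside these counts, 20.0% of all genes and 31.2% of those in the members' range were called. At the rim of the exit tunnel, where new proteins leave, 0 of 8 genes passed (4 had an unadjusted p under 0.05). The differences there ran from -0.25 for MRPL44 to 0.28 for MRPL17. At the stalk and its base, where translation factors bind, MRPL11 rose by 0.35 ± 0.09 (adjusted p = 0.0235). There MRPL12 (0.26, adjusted p = 0.051) and MRPL10 (0.15, adjusted p = 0.395) did not pass.

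Other members past the threshold were MRPL41, MRPL37, MRPL15, MRPS18A and MRPS36, with differences of 0.28 to 0.33 and adjusted p values from 0.037 to 0.0498. Bright members were not all among the changed genes. MRPL47 read 12.68, 12.64, 12.62 and 12.37 in controls and 12.64, 12.60, 12.69 and 12.63 in knockdown arrays (0.06 ± 0.08; adjusted p = 0.649), MRPL20 differed by 0.08 ± 0.11 (adjusted p = 0.672) and MRPS24 by 0.18 ± 0.08 (adjusted p = 0.15). The dimmest member, MRPL38, differed by 0.40 ± 0.17 and did not pass (adjusted p = 0.132), with controls spread from 8.20 to 8.95.

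Most genes had a single probe set: the 74 genes had 129 in all, and 33 genes had more than 1. Of the 55 probe sets not chosen, 1 rose and 3 fell, against 8.38% and 5.52% of all 54613 probe sets. The falls were MRPL19 (-1.13 on a probe set with a mean of 4.56), MRPS5 (-0.39, mean 5.76) and MRPL42 (-0.35, mean 10.19); the chosen probe sets of these genes differed by -0.21, -0.08 and 0.11 and did not pass. Of the 32 unchosen probe sets with a mean of at least 6, 16 were higher and 16 lower in knockdown arrays. No gene had calls in both directions. For 45 members the chosen probe set ends in _s_at or _x_at, which the manufacturer uses where probes can match several transcripts. Without such probe sets 43 members were measured, of which 8 rose and 6 fell, against 18.1% of all genes called. Of these 6 falls 5 were calls of the main fit, and MRPS15 was no longer among them. The newly called fall was MRPS5, read there from its dim probe set (-0.39, mean 5.76).

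The members moved together across arrays within each group as well. Control 4 was the lowest control in 66 of the 74 genes (89.2%), against 30.4% over all genes and 37.4% over the members' range. Knockdown 3 was the highest knockdown array in 61 genes (82.4%), against 35.5% and 39.0%. The median deviation of the members from their own means was -0.01, 0.02, -0.09 and -0.33 in controls 1 to 4 and 0.02, 0.04, 0.23 and 0.13 in knockdown arrays 1 to 4. Controls 1 to 3 and knockdown arrays 1 and 2 thus lay close to each other, and the difference between groups rested largely on control 4 and on knockdown 3 and 4. Over all genes the median deviation stayed between -0.03 and 0.04 on every array.

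**Figure D3:**
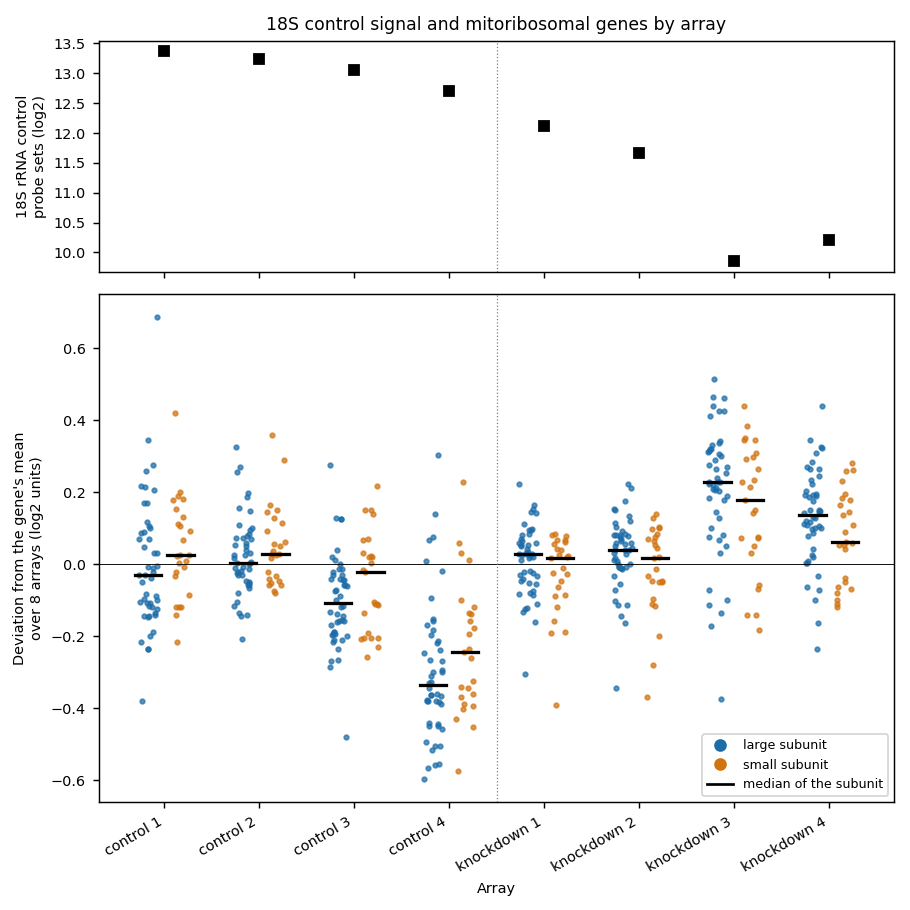
Upper panel: mean log2 signal of the 18S ribosomal RNA control probe sets on each of the 8 arrays (x axis). Lower panel: deviation of each large-subunit and small-subunit gene from its mean over the 8 arrays (log2 units), with the median of each subunit. The members sit lowest on control 4 and highest on knockdown 3, the array with the lowest 18S signal (9.85).

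Without control 4, 10 members rose and 6 fell, against 18.4% of all genes called, and the median difference was 0.13. With knockdown arrays 1 and 2 only, 1 member rose (MRPL54, 0.52, adjusted p = 0.0415) and 2 fell (MRPL18, -0.58, adjusted p = 0.0207, and MRPS2, -0.62, adjusted p = 0.0248), against 6.54% of all genes, and the median was again 0.13. Among the controls the array with the lowest 18S signal was also the lowest in the members, whereas among the knockdown arrays the one with the lowest 18S signal was the highest. With the 18S signal as a covariate, 0 members passed (5 had an unadjusted p under 0.05), and 0.458% of all genes did. All 26 kept their sign, the median difference of the 74 genes was 0.11, and the median standard error rose from 0.098 to 0.176. MRPL54 had a difference of 0.50 (adjusted p = 0.243) and MRPL18 one of -0.60 (adjusted p = 0.116) in this fit. The 18S signal does not overlap between the groups, so its part in these differences cannot be told apart from that of the knockdown. The signal of the 3' end of ACTB minus that of its 5' end, a measure of RNA integrity, was 1.45 ± 0.71 in controls and 1.95 ± 0.45 in knockdown arrays on the log2 scale (SD, n = 4; exact permutation p = 0.286), and its part was not tested.

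**Figure D4:**
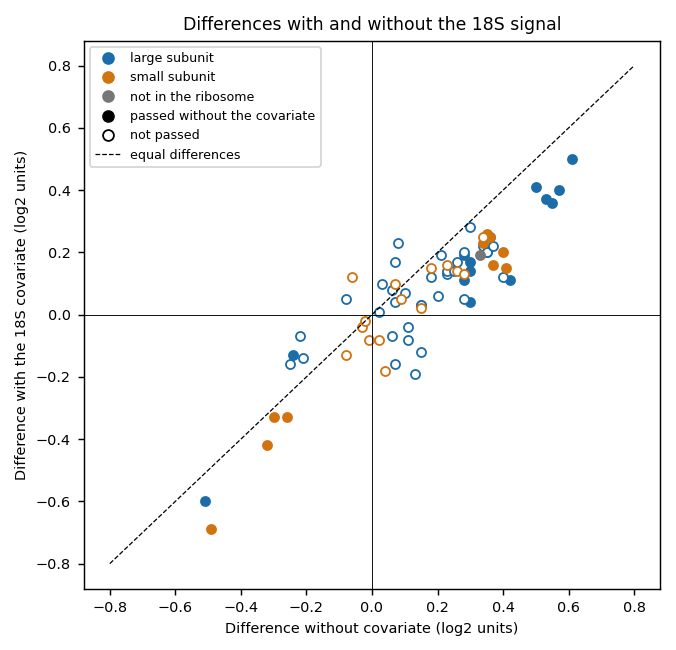
Difference of each member without (x axis) and with (y axis) the 18S signal as a covariate, in log2 units; the dashed line marks equal values and filled points passed without the covariate. MRPL54 moves from 0.61 to 0.50 and MRPL18 from -0.51 to -0.60, and with the covariate no point passes.

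The replicate numbers of the arrays were not used to pair them. With the number as a block 11 members rose and 2 fell, against 16.3% of all genes called. An equal-variance 2-sample test called 8 rises and 6 falls among the members, against 14.1% of all genes.

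Further proteins of the mitochondrial ribosome carry other symbols. Of 7 such genes, CHCHD1 (0.43 ± 0.08; adjusted p = 0.00385) and AURKAIP1 (0.40 ± 0.09; adjusted p = 0.0107) rose, and PTCD3 fell by 0.29 (SE 0.08; adjusted p = 0.0264); these 3 are proteins of the small subunit. AURKAIP1 did not pass when its probe sets were averaged (0.22; adjusted p = 0.0896). The remaining 4, with DAP3 at 0.03 and MRPL57 at 0.12 among them, did not pass. Beside these counts, 20.0% of all genes and 31.2% of those in the members' range were called. A probe set shared by CCDC142 and MRPL53 rose by 0.49, and one shared by MRPS17 and ZNF713 differed by 0.33 and did not pass.

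Of 25 factors that assemble the ribosome 4 rose and 1 fell, with a median of 0.04; the share called, 20.0%, was that of all genes. NGRN, needed for the large-subunit ribosomal RNA, had the largest rise (0.70 ± 0.09; adjusted p = 0.000884), with values of 10.82, 10.71, 10.68 and 10.43 in controls and 11.37, 11.29, 11.42 and 11.38 in knockdown arrays. ERAL1, a GTPase that binds the small-subunit ribosomal RNA, rose by 0.63 ± 0.15 (adjusted p = 0.0131). TFB1M, which methylates that RNA, fell by 0.57 (SE 0.09; adjusted p = 0.00214), with values of 9.70, 9.61, 9.72 and 9.36 against 9.01, 9.05, 9.07 and 9.01. The groups did not overlap in NGRN or TFB1M, and the knockdown arrays of both were tightly grouped.

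Of 16 translation genes 1 rose and 2 fell (18.8% called, against 20.0% of all genes), with a median of -0.15. LRPPRC, which stabilises mitochondrial messenger RNA, fell by 0.43 (SE 0.11; adjusted p = 0.0194), MTRF1, a release factor, fell by 0.32 (SE 0.07; adjusted p = 0.0138), and TACO1, an activator of COX1 translation, rose by 0.34 ± 0.11 (adjusted p = 0.0472). MTRF1 turned to 0.10 when its probe sets were averaged, and TACO1 to -0.02 without probe sets ending in _s_at or _x_at. Of 15 genes of mitochondrial transcription and RNA processing 1 rose and 0 fell (6.67% called, against 20.0% of all genes). POLRMT, the mitochondrial RNA polymerase, rose by 0.51 ± 0.15 (adjusted p = 0.035), with an overlap between the groups. Its rise was 0.30 when its probe sets were averaged. Of 15 transcripts of mitochondrial DNA 6 were measured and 0 passed (1 had an unadjusted p under 0.05); COX2, a cytochrome oxidase subunit, had the smallest p (0.18 ± 0.07; adjusted p = 0.102).

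Beside these, 1 of 81 cytosolic ribosomal protein genes rose and 0 fell (3 had an unadjusted p under 0.05), with a median of 0.01. Their median log2 level was 14.31, above that of the brightest mitoribosomal gene, and compression of differences at such levels was not tested. Of 82 nuclear-encoded subunits of oxidative phosphorylation 26 rose (31.7%) and 1 fell (1.22%), against 13.5% and 6.50% of all genes and 20.8% and 10.4% of those in the members' range of levels, with a median of 0.20 and a median level of 12.83. The mitoribosomal median of 0.19 was close to the latter. With the 18S covariate the oxidative phosphorylation genes had a median of 0.13 and 0 calls (4 had an unadjusted p under 0.05).

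**Figure D5:**
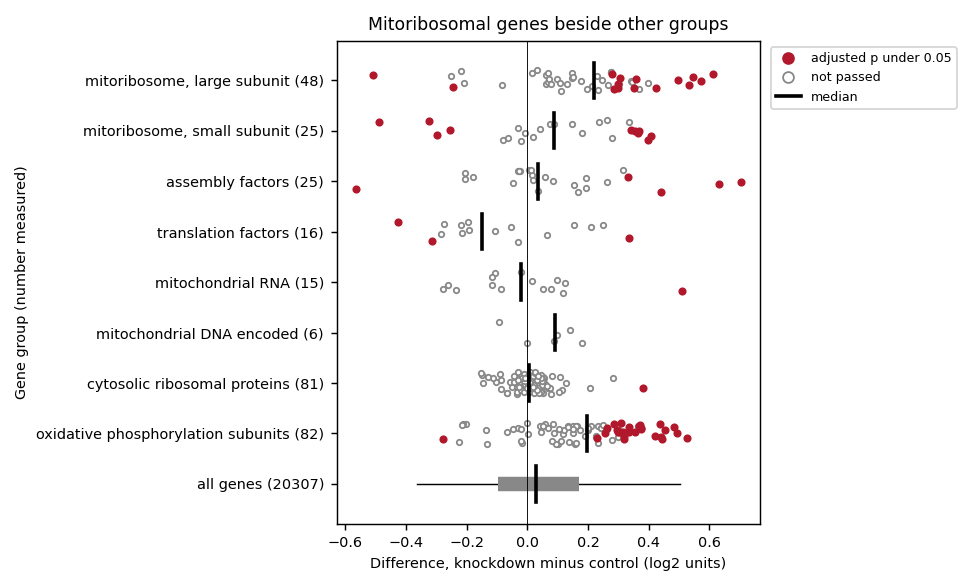
Differences between knockdown and control (x axis, log2 units) of the large-subunit and small-subunit genes and of other gene groups (y axis, number measured in parentheses); red points passed, open points did not and black bars are medians. For all genes the thick bar spans the 25 to 75 percentiles and the thin line the 5 to 95 percentiles. The medians are 0.22 and 0.09 for the subunits and 0.20 for oxidative phosphorylation; cytosolic ribosomal proteins, at 0.01, are brighter than the members.

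Promoter sequence was compared as a property that the choice by symbol did not use. RefSeq windows were found for 66 of the 74 genes. The 27305 windows used for comparison were not limited to genes measured here or to genes of like level. The letters AAGATGGCG, a motif of the factor YY1, stood on either strand in 13 of them (19.7%), against 1.85% of all 27305 windows, so most members lack them. With GC added after these letters they stood in 10 members (15.2%) against 0.916%. The 5 members with the highest differences among those that hold the motif are shown with the letters around it, and the motif in capitals, so that its place can be compared.
MRPL38, chr17:75904860-75904888, minus strand: ggccggagggAAGATGGCGgcgccctggt
MRPL52, chr14:22829779-22829807, plus strand: acgatgacccAAGATGGCGgagccgtgat
MRPL46, chr15:88467362-88467390, minus strand: gggagaacgaAAGATGGCGgcgcccgtaa
MRPS18A, chr6:43687764-43687792, minus strand: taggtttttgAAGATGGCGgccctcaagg
MRPS24, chr7:43869480-43869508, minus strand: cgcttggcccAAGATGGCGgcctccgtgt

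The motif read forward in 11 of the 13 members. In all of these except MRPL52, where it lay 98 bases upstream, it began 6 to 35 bases after the start, and its letters include ATG. Among members that held it, MRPS18A rose, none fell (18 rises and 6 falls were among the 66 windows), and the median difference was 0.11, against 0.23 for members without it. The ETS letters CCGGAAGT stood in 10 members (15.2%) against 4.44% of all windows. Of these 10 members 2 rose and 1 fell, and their median difference was 0.20, against 0.16 for members without the letters. The NRF1 letters GCATGCGC stood in 6 members (9.09%) against 3.27%, but with GC added before them in 1 member (1.52%) against 1.36%. CACGTG, the E-box bound by MYC among others, stood in 7 (10.6%) against 7.43%, GGGCGG in 40 (60.6%) against 44.6%, CCAAT in 19 (28.8%) against 35.7% and TATAAA in 3 of 66 members against 3264 of 27305 windows. Both strands were searched for each motif. A match describes the letters only and is no measure of binding.

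The starts of neighbouring genes on the other strand were compared as well. A neighbour reading the opposite way began within 1000 bases of 21 of the 66 members (31.8%), against 16.6% of all genes. The latter share too was not limited to genes measured here or of like level. Of the 17 neighbours measured, 3 rose (17.6%) and 1 fell (5.88%), near the 13.5% and 6.50% of all genes. MRPS27, which fell, lies 133 bases from PTCD2, which fell by 0.34 (SE 0.10; adjusted p = 0.0318). MRPL37, which rose, lies 137 bases from CYB5RL, which rose by 0.48 ± 0.11 (adjusted p = 0.0113). The other called neighbours, PPP1R10 (0.39 ± 0.12; adjusted p = 0.046) and SARS2 (0.42 ± 0.12; adjusted p = 0.0364), lie beside MRPS18B (-0.01) and MRPS12 (0.04), which did not pass. MRPL27 and MRPL18 had neighbours that did not pass, EME1 at 45 bases (0.06) and the chaperonin gene TCP1 at 210 bases (-0.13). MRPS11 and MRPL46 face each other over 320 bases, with differences of 0.28 and 0.30 that did not pass.

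In the authors' deposited table, 7 of the 74 chosen probe sets were higher (9.46%) and 2 lower (2.70%) at their limits of p under 0.01 and over 1.3-fold, against 2611 higher (4.78%) and 1369 lower of all 54675 probe sets; the share of lower members is close to that of all probe sets. The chosen probe sets are the brightest of bright genes, so these shares do not compare probe sets of like level. The higher members were MRPL54 with a ratio of 1.53, MRPL43, MRPL27, MRPL40, MRPL55, MRPL49 and MRPS33. The lower members were MRPL18 (0.703) and MRPS2 (0.712), all in the authors' deposited table.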

How the data were processed

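RNA from 8 CEM cultures, 4 per group, was hybridized to Affymetrix HG-U133 Plus 2.0 chips. The authors deposited log2 values of 54675 probe sets made with RMA, which by its definition corrects background and quantile-normalizes arrays; the name comes from the submitters' processing notes and from the workbook's header, and no version is stated there. The deposited workbook also holds an unadjusted 2-sample p-value and a knockdown to control ratio, per the file headers. Precision is limited by having 4 arrays per group.

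Differences were fitted with limma 3.58.1 in R 4.3.3 (lmFit, eBayes, two-sided, no covariate) on 54613 probe sets, leaving out 62 manufacturer controls. Gene symbols are the workbook's; 41479 probe sets have 1 symbol, 961 several and 12173 none. Each gene took its brightest probe set, and Benjamini-Hochberg adjustment ran over the 20307 genes, or over all probe sets where stated. The fit was tested on simulated data. Single values were compared by exact permutation.

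The members and gene lists were chosen with earlier results of these data known, and subunit, origin and position classes were assigned after the values were seen. The lists of cytosolic ribosomal proteins and of oxidative phosphorylation subunits were drawn by symbol pattern after values were seen; COX4I1 and COX4I2, missed at first, were added once the counts of that list were known, and neither passed. Named with values were the 12 largest rises and all falls, the 5 brightest and 3 dimmest members, up to 3 changed genes of each list (or the one with the smallest p) and ZMIZ1; other members are named to place a count, after their values were seen.

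Same-numbered control and knockdown arrays had deviations correlated at 0.10, -0.19, -0.06 and 0.01, and the design calls them unpaired. Nothing beyond the word biological says how the cultures were separated, so p-values measure the spread between these arrays. Alternatives were a replicate block, median centring, the equal-variance 2-sample test, a variance trend, array weights, other probe set choices, the 18S covariate and leaving out arrays. Motif spellings were set with the values known, and the longer spellings were searched first. Promoter windows and gene neighbours are from RefSeq GRCh38.p14.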

Additional observations from a re-analysis of the deposited data

Results flagged for a closer look

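Among 23 genes checked in both groups (46 checks), 2 arrays stood far from the others of their group; chance alone flags about 1 group in 20. MRPL51 read 12.35 on control 4, below the other controls at 12.57 to 12.61. MRPS27 read 10.86 on control 2, below the other controls at 11.09 to 11.13. The cause was not tested for either gene.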

How the results depend on the processing

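The results rest on 4 arrays per group and small differences, and depend on which arrays enter. Against 20 rises, 6 falls and a median of 0.19, the counts of members that rose and fell were 11 and 2 with the replicate block, 8 and 6 with the equal-variance 2-sample test, 8 and 6 without probe sets ending in _s_at or _x_at (43 members measured), 0 and 0 with the 18S covariate and 1 and 2 without knockdown replicates 3 and 4. In the same order the large-subunit counts, 13 and 2 in the report, were 8 and 1, 6 and 2, 6 and 2, 0 and 0, and 1 and 1. The small-subunit counts, 6 and 4 in the report, were 3 and 1, 2 and 4, 2 and 4, 0 and 0, and 0 and 1. Without _s_at and _x_at probe sets, 5 of the members' falls were kept and 1 was newly called. With arrays centred on their median 27 members rose and 5 fell, and with array weights 29 rose and 6 fell. Rises among the members came to 24 without probe sets of a mean under 6, 23 with the variance trend and 21 with all probe sets averaged. In the large subunit 1 gene fell with median centring, and 20 genes rose with array weights. The 63 other genes of mitochondrial gene expression had 8 rises and 4 falls, and 4 and 3 with the block, 3 rises with the equal-variance test, 5 without the _s_at and _x_at probe sets, 0 and 0 with the covariate, 1 and 1 without knockdown replicates 3 and 4, and 8 falls with array weights. Over all genes 2733 rose and 1320 fell, against 40 and 53 with the covariate and 856 and 473 without knockdown replicates 3 and 4. The replicate numbers do not pair the arrays, so the block result is given for completeness.

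Leaving out 1 array at a time gave 9 to 23 rises and 2 to 6 falls among the members, 7 to 15 and 1 to 3 in the large subunit, 2 to 7 and 1 to 3 in the small subunit, 4 to 9 and 2 to 6 among the other genes of mitochondrial gene expression, and 1820 to 2736 and 768 to 1262 over all genes. The median difference of the members kept its sign under each alternative, between 0.11 and 0.25; that of the small subunit was -0.01 without _s_at and _x_at probe sets. MRPL47 turned to -0.01 and MRPL20 to -0.03 without control replicate 4 (the other single-array fits gave MRPL47 0.05 to 0.10 and MRPL20 0.06 to 0.16), TACO1 to -0.02 without _s_at and _x_at probe sets and MTRF1 to 0.10 with the mean of all probe sets. The cause was not tested. Of the named genes' other values under an alternative, 466 kept their side of the threshold, 128 no longer passed and 3 newly passed.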
